A study of Homo sapiens with 6 samples.

Results

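The kinesin motor genes were examined in the cell line DU-145-DR/tet-MUC1shRNA. DU-145 is a line from a human prostate cancer, and DU-145-DR was selected from it for growth in docetaxel (DTX). They were chosen by symbol alone, as every gene named KIF followed by digits and at most a letter A, B or C, together with KIFC1, KIFC2 and KIFC3. This gave 42 of the 28008 genes in the table of counts. RNA was sequenced from 3 DOX-negative cultures, which received DMSO, and 3 DOX-positive cultures, which received doxycycline (DOX) at 500 ng/ml for a week. According to the study, both groups are the same puromycin-selected line, made resistant by continuous exposure to DTX and carrying a pLKO-tet-puro vector from which DOX induces a short hairpin RNA against MUC1. Only the DOX-positive samples have the hairpin in their treatment label. No library of a control hairpin with DOX, and none of another hairpin against MUC1, was analysed here. Silencing of MUC1, other effects of the hairpin and exposure to DOX therefore cannot be told apart. No library of the DTX-sensitive parent was analysed here, so nothing below measures resistance itself. The cells came from 1 selected line, and the libraries of a group are separate cultures of it, so the spread and the p-values describe these cultures.

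Kinesins are motor proteins that hydrolyse ATP to walk along microtubules or to take microtubules apart. Mitotic kinesins build the spindle, align the chromosomes and close the cell at cytokinesis, and many of their genes are switched on in G2 and M phase. Transport kinesins carry organelles, vesicles and mRNA through the interphase cell, mostly towards microtubule plus ends, and a further group works in cilia, at centrioles or in signaling. DTX is a taxane that binds and stabilises microtubules and arrests cells in mitosis, which is why the motors that act on the spindle are of interest in cells selected for growth in it. The 42 genes were placed in 3 classes by these textbook roles: 15 mitotic kinesins, 16 transport kinesins and 11 cilium and other kinesins.

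Library totals ran from 15092691 to 23243713 counts, and a count of 3, taken as the detection floor, was worth between 0.131 and 0.202 CPM (counts scaled to the TMM-adjusted total of the library). MUC1 was read at 21.3, 24.8 and 19.7 CPM in DOX-negative replicates 1 to 3 and at 3.27, 3.87 and 4.44 CPM in DOX-positive replicates 1 to 3. It fell by 2.52 on the log2 scale (SE 0.15, adjusted p = 4.47e-11, edgeR), lowest in the libraries labelled with the hairpin. The epithelial markers EPCAM, KRT8, KRT18 and CDH1 were all read, with a summed level between 587 and 651 CPM without DOX and between 1077 and 1165 CPM with it. Of 9 markers of immune, endothelial and fibroblast cells 8 had at most 10 counts in any library, 2 of them none.

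The kinesin genes were read at uneven levels. Levels of different genes were compared per transcript length, as the percent of the summed kinesin TPM (transcript abundance corrected for length) of a library, because a share within 1 library does not depend on how the rest of that library was scaled. The 4 highest genes, KIF23, KIF5B, KIF20A and KIF11, held between 43.5% and 47.4% of the kinesin TPM. In all, 21 kinesins held over 1% each, 13 of them mitotic and 8 of them transport motors, whereas 12 held under 0.1%. Of the 42 genes, 39 had at least 1 count in every library.

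Among the mitotic kinesins KIF23, the motor of the centralspindlin complex that bundles microtubules between the separating chromosomes, stood highest. It held 15.3%, 14.0% and 15.6% of the kinesin TPM without DOX and 14.6%, 14.4% and 14.9% with it. KIF20A, which brings the chromosomal passenger complex to the central spindle for cytokinesis, held 10.0%, 9.16% and 11.0% without DOX and 9.40%, 8.80% and 8.86% with it. KIF11, the plus-end motor that pushes the spindle poles apart, followed with 7.75%, 7.56% and 8.08% against 8.28%, 8.46% and 8.15%. The DOX-negative and DOX-positive values overlapped for KIF23 and KIF20A, while those of KIF11 were higher in each DOX-positive library than in each DOX-negative library on this scale. Next came KIF2A, at 4.51% to 5.45%, and KIF18B and KIF18A, with means over the 6 libraries of 3.90% and 3.67%. Below them KIF14, KIF22, KIF2C, KIF20B and KIF4A had means between 3.18% and 3.52%. KIFC1, the minus-end motor that clusters extra centrosomes, and KIF15, which can stand in for KIF11 on the spindle, were the lowest of the mitotic kinesins that were tested, with means of 1.36% and 1.17%.

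The transport kinesins were led by KIF5B, the widely used heavy chain of kinesin-1, which carries mitochondria, lysosomes and vesicles. It held 12.8%, 12.9% and 12.8% of the kinesin TPM without DOX and 13.4%, 14.4% and 13.9% with it, more than 3 times the share of KIF1C, the next transport motor, at 3.84%, 4.24% and 3.84% against 3.52%, 3.42% and 3.46%. KIF3B, a motor subunit of heterotrimeric kinesin-2, came after it at 2.97%, 3.03% and 2.86% without DOX and 3.31%, 3.68% and 3.40% with it. In the third class KIF24, a centriolar kinesin that restrains the growth of primary cilia, was the highest gene at 0.782%, 0.748% and 0.720% against 0.605%, 0.620% and 0.551%. KIF26A, an atypical kinesin without motor activity, and KIF17, a kinesin-2 of cilia and dendrites, were the next by mean TPM. Their shares were at most 0.144% and 0.127% in any library. By mean share KIF9, at 0.104%, lay just above KIF17, at 0.100%.

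**Figure D1:**
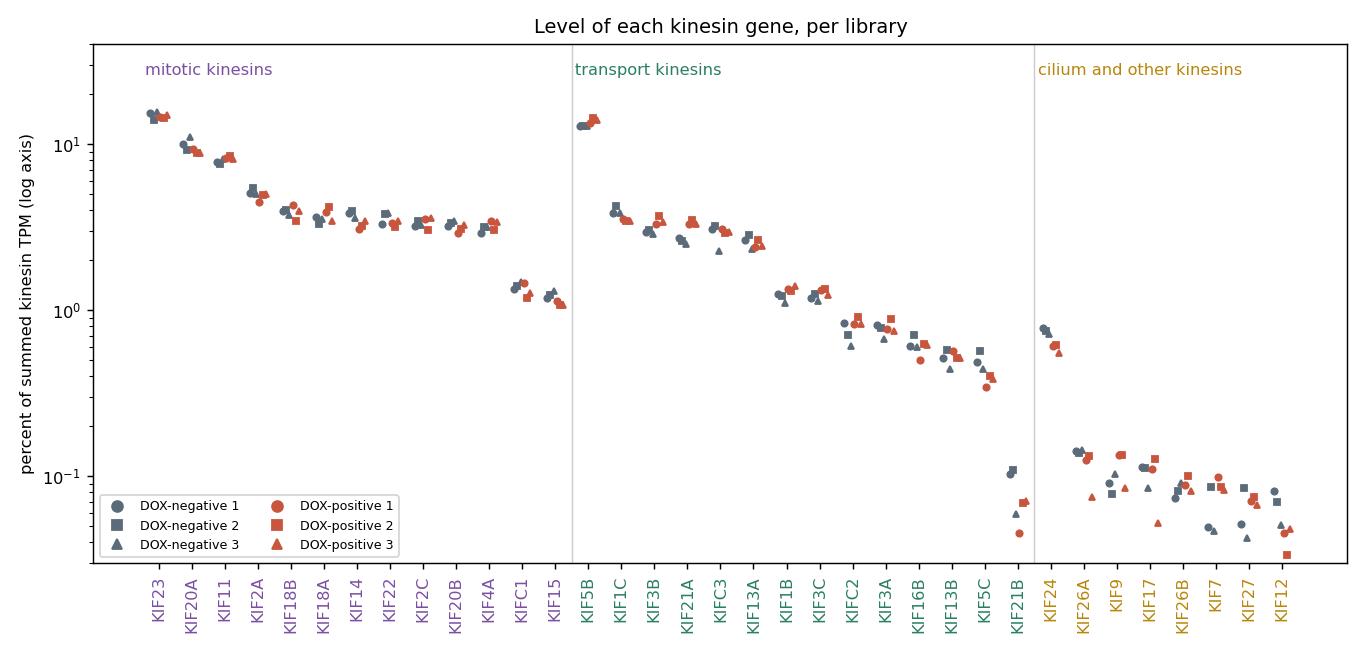
Share of the summed kinesin TPM held by each kinesin gene in each library, as a percent on a log axis, for the genes with a mean share over 0.05%; grey points are DOX-negative and red points DOX-positive libraries, and marker shapes give the replicate. KIF23, KIF5B, KIF20A and KIF11 lie above the rest in all 6 libraries, and of the cilium and other kinesins KIF24 alone comes near 1%.

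Close relatives were read at very different levels. Of the kinesin-1 heavy chains, KIF5B held between 95.6% and 97.4% of their summed TPM, KIF5C between 2.52% and 4.25%, and KIF5A at most 0.15%; KIF5A and KIF5C are known mainly from neurons. KIF21A held between 96.0% and 98.6% of the TPM of itself and KIF21B, a pair of motors that slow microtubule growth. Within kinesin-2, KIF3B held between 58.5% and 62.5%, KIF3C between 22.4% and 24.3%, KIF3A between 13.8% and 16.0% and KIF17 at most 2.24%, although KIF3A and KIF3B are thought to work as a pair. Of the summed TPM of the kinesin-13 family (KIF2A, KIF2B, KIF2C and KIF24), the microtubule depolymerases KIF2A and KIF2C held 52.1% to 57.4% and 35.2% to 40.9%, KIF24 held 6.04% to 8.62%, and KIF2B was at 0 counts in every library.

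The class shares were close in the groups, and those of the mitotic class overlapped. Mitotic kinesins held 64.8%, 63.8% and 67.0% of the kinesin TPM without DOX and 63.9%, 62.1% and 63.7% with it. The means were 65.2% ± 1.63 and 63.2% ± 0.989 (SD, n = 3), a difference of -1.99 percentage points, with DOX-negative replicate 2 below DOX-positive replicate 1. Transport kinesins held 33.8%, 34.7% and 31.7% without DOX and 34.8%, 36.6% and 35.3% with it, higher in each DOX-positive library by a narrow margin, and the remaining class held between 1.06% and 1.43%, with overlap. The kinesin genes together took between 0.264% and 0.282% of all counts.

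**Figure D2:**
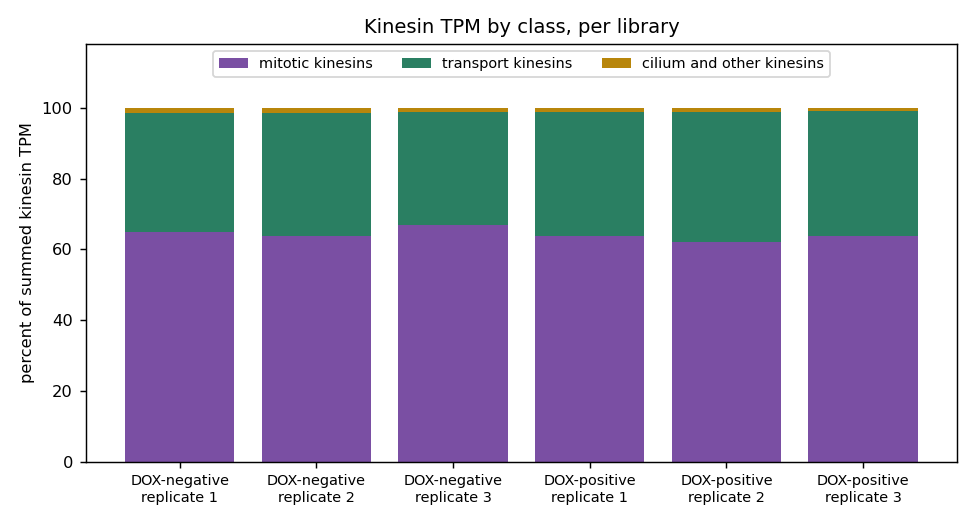
Percent of the summed kinesin TPM held by mitotic, transport and cilium and other kinesins in each of the 6 libraries, as stacked bars from 0. The mitotic share runs from 62.1% to 67.0% and its DOX-negative and DOX-positive values overlap.

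The promoters of most mitotic kinesins held a feature that the choice of genes did not use. The CHR (cell cycle genes homology region) is a short element found near the start of many G2/M genes, where the DREAM complex binds in resting cells and the MMB complex in dividing ones. The words TTTGAA and TTCGAA were searched on both strands in the 300 bases from 250 before to 50 after each start in RefSeq promoters of GRCh38.p14, which cover 34 of the 42 kinesin genes in 43 windows. For 27 of these genes a transcript annotated in GENCODE 29 began inside a window in the printed orientation. The starts used for KIFC1 and KIF24 lie inside their genes, whose RefSeq 5′ ends are at chr6:33391461 and chr9:34333671. A CHR word was present for 11 of 15 mitotic kinesins, 1 of 11 transport kinesins (KIF5B) and 1 of 8 cilium and other kinesins (KIF24). The same words occur for 19.5% of all genes in the promoter table and for 15.4% of its genes tested here (16.4% of all 35116 windows). In 11 of the 12 windows of mitotic kinesins that hold one, the first base lay between 55 bases before and 30 bases after the start. The other window belongs to an alternative start of KIF22 and holds the same word, at -244. A CHR word between -60 and 40, limits set after these positions were seen, is present in 5.28% of all windows. The transport motor KIF5B has its word farther off, at -140. The windows of all kinesin genes with a CHR word are shown, so that the mitotic ones can be read beside those of KIF24 and KIF5B. Each is read 5′ to 3′ on the strand of its gene with CHR words on either strand in capitals.

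KIF11 (chr10:92593090-92593119, plus strand): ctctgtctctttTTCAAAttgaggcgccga
KIF14 (chr1:200620733-200620762, minus strand): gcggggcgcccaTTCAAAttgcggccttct
KIF15 (chr3:44761747-44761776, plus strand): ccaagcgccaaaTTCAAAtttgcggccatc
KIFC1 (chr6:33391815-33391844, plus strand): tggccgttggaaTTCAAAagtggcgggtgt
KIF4A (chrX:70290058-70290087, plus strand): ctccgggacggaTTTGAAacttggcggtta
KIF4B (chr5:155013746-155013775, plus strand): ctctgggagggaTTTGAAacttggcggtta
KIF18A (chr11:28108149-28108178, minus strand): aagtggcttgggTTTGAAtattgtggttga
KIF18B (chr17:44947754-44947783, minus strand): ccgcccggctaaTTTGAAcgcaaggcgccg
KIF20B (chr10:89701602-89701631, plus strand): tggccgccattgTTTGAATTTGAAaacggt
KIF22 (chr16:29790712-29790741, plus strand): ggcaccggggaaTTCGAAtgggagaggcgg
KIF23 (chr15:69414282-69414311, plus strand): ctgattggcccgTTTGAAatgcgccaggcg
KIF24 (chr9:34329250-34329279, minus strand): acagcgcgggcgTTCGAActggcgcttggc
KIF5B (chr10:32056548-32056577, minus strand): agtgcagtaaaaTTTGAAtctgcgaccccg

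KIF20B carries the word in tandem, and the windows of KIF4A and its intronless copy KIF4B share the word and all bases after it. The mitotic kinesins without a CHR word in these windows were KIF2A, KIF2B, KIF2C and KIF20A. A CCAAT box, the site of the factor NF-Y that often accompanies the CHR, was found on either strand for 11 of 15 mitotic kinesins, KIF20A included, against 4 of 11 transport kinesins and 39.7% of all genes in the promoter table. The E-box word CACGTG, which MYC can bind, was in none of the 43 kinesin windows and in 7.26% of all promoters. Among genes of the mitotic motors' partners 8 of 13 had a CHR word and 3 of 13 the E-box word. Among genes of the cargo partners 0 of 9 had either word. The E-box word was present for 8.77% of all genes in the promoter table. These matches describe letters in a window and do not show that a factor was bound.

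**Figure D3:**
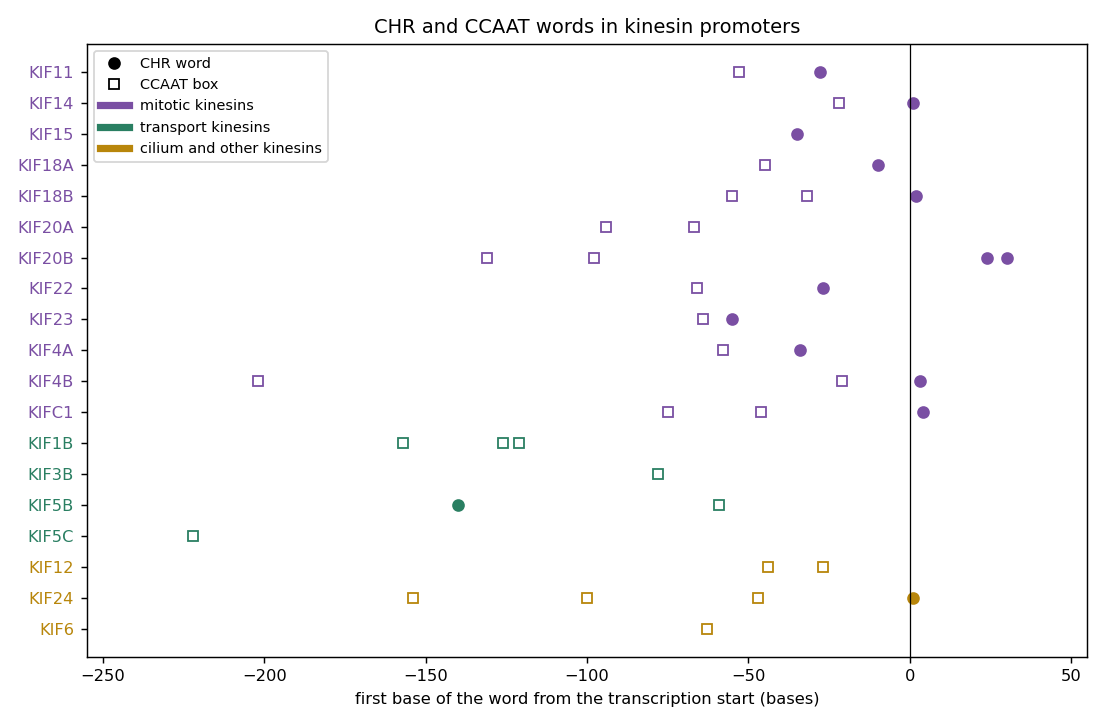
Position of CHR words (filled circles) and CCAAT boxes (open squares) in the promoters of kinesin genes that hold either, in bases from the transcription start to the first base of the word, coloured by class; for KIF22 the window of its other start, which holds the same word, is left out. The CHR words of the mitotic kinesins gather between -55 and 30, with CCAAT boxes upstream of them except in KIF15, where none was found.

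In the comparison of DOX-positive with DOX-negative cells, 6 of the 36 kinesins that passed the filter on low counts (16.7%) had an adjusted p under 0.05, against 26.7% of the 14292 genes tested. KIF21A and KIF3B rose (2 of 36, where 13.0% of all genes rose), and KIF14, KIF1C, KIF5C and KIF24 fell (4 of 36, where 13.7% of all genes fell). The CPM of the groups did not overlap for 12 of the 36 (33.3%), against 39.8% of all genes tested. The median absolute log2 fold change was 0.140 for the kinesins and 0.191 for all genes tested, and the kinesins ran from -0.57 (KIF21B) to 0.55 (KIF7), of which neither passed the test. In RNA from whole cultures, fewer cells in mitosis and less transcript per cell cannot be told apart. On the scale of log2(TPM + 1) the median of all genes shifted to -0.335, no kinesin passed the test with limma (4 had an unadjusted p under 0.05, all lower), and the values of KIF21A (-0.03) and KIF3B (-0.16) were below 0 though above that shift, as was the median of the transport kinesins (-0.27), while that of the mitotic kinesins (-0.46) lay below it. The genes that were not tested were KIF2B at 0 counts, which allows up to 0.202 CPM at the floor of 3 counts in the shallowest library, KIF4B at 3 to 8 counts, KIF6 at 1 to 11, KIF12 at 6 to 14, KIF19 at 0 to 4 and KIF25 at 0 to 8.

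**Figure D4:**
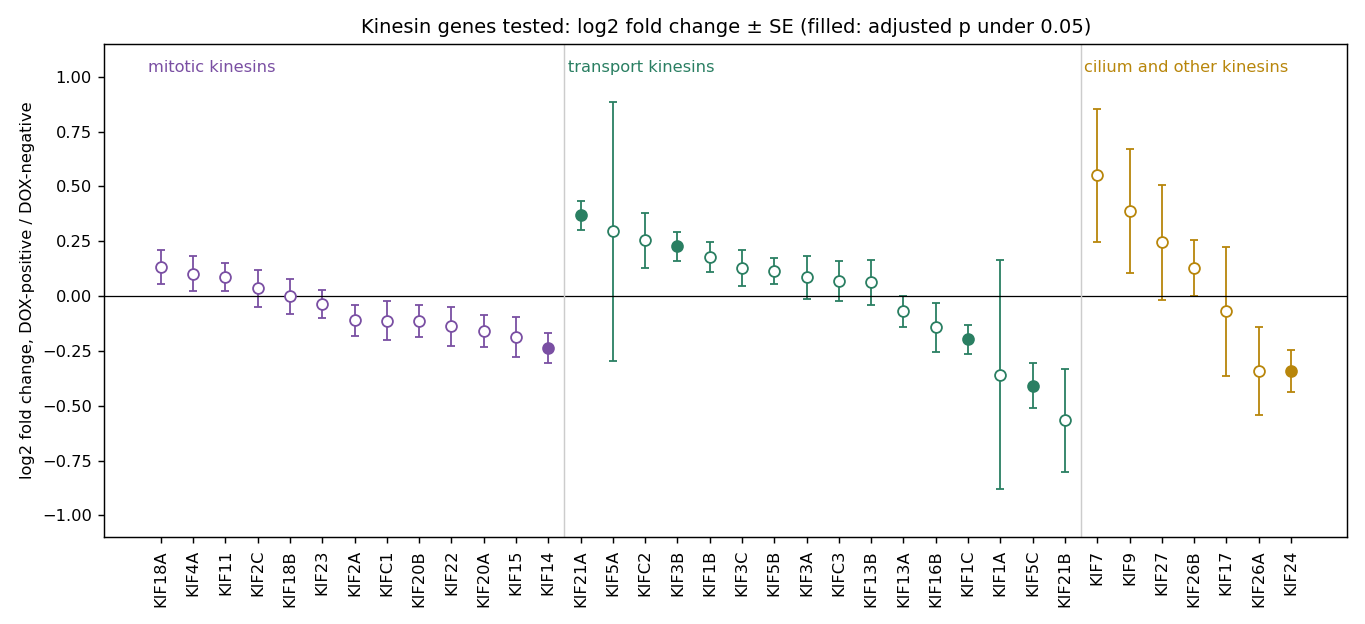
Log2 fold change of DOX-positive against DOX-negative libraries for the 36 kinesins tested, with bars of 1 SE, grouped by class and ordered by size; filled points have an adjusted p under 0.05. A single mitotic kinesin, KIF14, is filled, and the transport kinesins hold 2 filled points above and 2 below 0.

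Of 13 mitotic kinesins tested, 1 fell by edgeR and by DESeq2, 0 by limma on TPM, and none rose by any of them (7.69% called by edgeR, beside 26.7% of all genes; 2 were lower and 0 higher at an unadjusted p under 0.05). The class had a median log2 fold change of -0.11 beside -0.00336 for all genes tested (4 positive, 9 negative). KIF14, which recruits citron kinase to the midbody in cytokinesis, was read at 148, 154 and 143 CPM without DOX and at 119, 121 and 137 CPM with it. The groups did not overlap, and DOX-positive replicate 3 lay nearest to the DOX-negative libraries. KIF14 fell by 0.24 on the log2 scale (SE 0.07, adjusted p = 0.0134, edgeR), to 84.9% of its DOX-negative mean. Without DOX-positive replicate 1 the adjusted p was 0.0774. KIF14 lies at chr1:200551497-200620751 in GRCh38.p14.

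The spindle motors best known as drug targets gave no call. KIF11 was read at 203, 200.1 and 221 CPM without DOX and at 221, 219 and 223 CPM with it, values that overlap at the upper end (log2 fold change 0.09, SE 0.06, adjusted p = 0.324, edgeR). KIFC1 stood at 57.1, 60.8 and 66.0 CPM without DOX and at 63.3, 49.7 and 56.9 CPM with it (-0.11, SE 0.09, adjusted p = 0.378). DOX-positive replicate 1 lay inside the range of the DOX-negative libraries and replicates 2 and 3 below it. The abundant cytokinesis motor KIF23 was at 288, 265 and 305 CPM and at 279, 268 and 291 CPM, with the groups intermixed (-0.04, SE 0.06, adjusted p = 0.740). KIF20A was at 175, 161 and 199 CPM without DOX and at 167, 151 and 161 CPM with it. Its log2 fold change was -0.16 (SE 0.07, adjusted p = 0.114), and it was -0.23 (adjusted p = 0.0257) with DOX-negative replicate 2 left out and -0.07 (adjusted p = 0.521) with DOX-negative replicate 3 left out. KIF20A overlaps CDC23 on the opposite strand. KIF2C, KIF18A, KIF22 and KIF23 also overlap a gene on the opposite strand. Whether counting used strand is not given in the sources used here. The other mitotic kinesins had log2 fold changes from -0.19 (KIF15) to 0.13 (KIF18A), with standard errors between 0.07 and 0.09; KIF15 was the only one of them without overlap of the groups, at 29.6, 31.1 and 33.8 CPM against 28.8, 26.4 and 27.8 CPM. KIF4A and KIF4B are nearly identical in sequence, so how their reads were divided is uncertain.

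General proliferation genes gave 1 call. Of 8 markers (MKI67, TOP2A, CCNB1, CCNB2, CDK1, CCNA2, BUB1 and CDC20), 1 fell and none rose by edgeR (12.5%, beside 26.7% of all genes; 2 fell by DESeq2, and 2 were lower and 0 higher at an unadjusted p under 0.05), with a summed level between 2938 and 3112 CPM without DOX and between 2753 and 3084 CPM with it. BUB1, a kinase of the spindle checkpoint, fell by 0.23 on the log2 scale (SE 0.07, adjusted p = 0.0144, edgeR). The part of cell cycle position in the values of KIF14 was not tested.

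Proteins that work with the mitotic motors gave 2 calls among 15 tested (13.3%, beside 26.7% of all genes), in opposite directions. The list includes CENPE, itself a motor of the kinesin family at the kinetochore, whose symbol the choice of members did not take in. ECT2, the exchange factor that centralspindlin recruits to start the cleavage furrow, was at 645, 607 and 663 CPM without DOX and at 536, 496 and 540.2 CPM with it, with no overlap. It fell by 0.28 (SE 0.06, adjusted p = 0.00165, edgeR). HMMR, a spindle-pole protein and partner of TPX2, was at 89.2, 89.3 and 97.2 CPM and at 105, 108 and 104 CPM, and rose by 0.20 (SE 0.07, adjusted p = 0.0322). The call for HMMR was lost in 5 of the 6 fits with a library left out, where the adjusted p rose to 0.140 (DOX-negative replicate 1 left out), 0.0813 (DOX-negative replicate 2), 0.0746, 0.0629 and 0.0669 (DOX-positive replicates 1, 2 and 3). It was 0.0671 with total counts and 0.0784 with the replicate number as a block. The other 13, among them PRC1, RACGAP1, CIT, PLK1 and CENPE, did not pass the test, and the median of the 15 was -0.06.

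Of 16 transport kinesins tested, 2 rose and 2 fell (25%, beside 26.7% of all genes), with a median log2 fold change of 0.08 (10 positive, 6 negative). The CPM of the groups did not overlap for 8 of them (50%, beside 39.8% of all genes). KIF21A had the lowest adjusted p of all the kinesins tested. This motor of the kinesin-4 family curbs microtubule growth at the cell cortex, and its gene lies at chr12:39293228-39443120. It was read at 94.5, 91.2 and 90.3 CPM without DOX and at 117, 120.0 and 119.5 CPM with it, so that each group was tight and the groups were well apart. KIF21A rose by 0.37 on the log2 scale (SE 0.07, adjusted p = 0.000222, edgeR), to 129% of its DOX-negative mean, and stayed under 0.05 in all 6 fits with a library left out. Its relative KIF21B was at 5.45, 5.83 and 3.28 CPM and at 2.44, 3.60 and 3.90 CPM, with overlap, a log2 fold change of -0.57 (SE 0.24) and an adjusted p of 0.0812, which was 0.0159 without DOX-negative replicate 3. The difference between the fold changes of KIF21A and KIF21B was not tested.

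KIF3B (chr20:32277651-32335011) rose by 0.23 (SE 0.07, adjusted p = 0.0137, edgeR). Its libraries were at 94.7, 97.4 and 95.0 CPM without DOX and at 107, 116 and 113 CPM with it, with no overlap. With DOX-negative replicate 1 left out the adjusted p was 0.0637, and with DOX-positive replicate 3 left out it was 0.0518. Other genes of kinesin-2 gave no call. KIF3A, the motor partner of KIF3B, had a log2 fold change of 0.09 (SE 0.10), and KIF3C one of 0.13 (SE 0.08). KIFAP3, the accessory subunit that holds cargo, was at 0.02 (SE 0.12). KIF3B made up 59.1% ± 0.985 of kinesin-2 TPM without DOX and 61.2% ± 1.27 with it (SD, n = 3), with overlap of the groups.

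The log2 fold changes of KIF5C and KIF5B, heavy chains of kinesin-1, had opposite signs by edgeR, and the difference between them was not tested. KIF5C (chr2:148875227-149026759) was at 29.3, 34.7 and 27.6 CPM without DOX and at 21.2, 23.9 and 24.0 CPM with it. The groups did not overlap, and DOX-negative replicate 2 was the highest. KIF5C fell by 0.41 on the log2 scale (SE 0.10, adjusted p = 0.00479, edgeR), to 75.5% of its DOX-negative mean, and stayed under 0.05 with each library left out. KIF5B was at 392, 398 and 409 CPM and at 419, 435 and 443 CPM, also without overlap, with a log2 fold change of 0.11 (SE 0.06, adjusted p = 0.165). KIF5C made up 3.67%, 4.25% and 3.33% of the TPM of the kinesin-1 heavy chains without DOX and 2.52%, 2.72% and 2.69% with it. Its share was lower in each DOX-positive library.

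KIF1C (chr17:4997950-5028401), a fast kinesin-3 motor for dense core vesicles and integrins, was at 160.2, 179 and 167 CPM without DOX and at 149.6, 141 and 151 CPM with it. It fell by 0.20 (SE 0.07, adjusted p = 0.0282, edgeR). The groups did not overlap, but the call was lost in 5 of the 6 fits with a library left out. The adjusted p was 0.109 and 0.0507 without DOX-negative replicates 2 and 3, and 0.0565, 0.0774 and 0.0550 without DOX-positive replicates 1, 2 and 3. It was 0.0773 with the replicate number as a block. KIF1C overlaps AC004771.1 on the opposite strand. KIF1B, which moves mitochondria and synaptic vesicle precursors, was at 108, 105 and 99.2 CPM and at 117, 111 and 125 CPM, higher in each DOX-positive library, and gave 0.18 (SE 0.07) with an adjusted p of 0.0625, which was 0.0255 without DOX-positive replicate 2. KIF1A was near the floor at 4 to 16 counts. The remaining transport motors, KIF13A, KIF13B and KIF16B of endosomes and the minus-end motors KIFC2 and KIFC3, lay between -0.14 and 0.25 and gave no call.

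**Figure D5:**
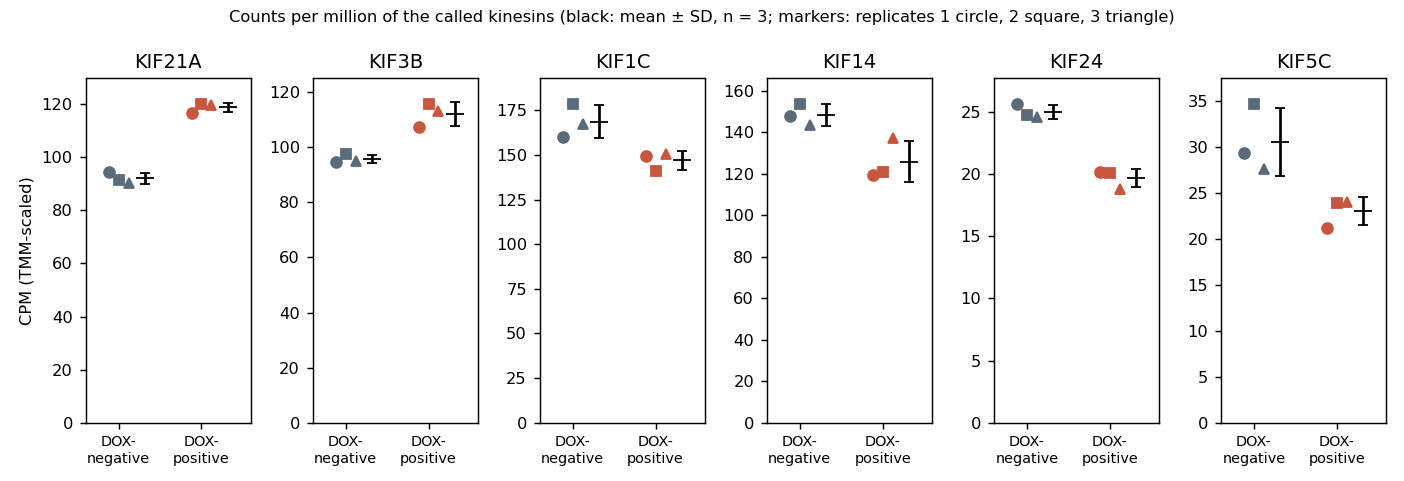
CPM, scaled with TMM factors, of the 6 kinesins with an adjusted p under 0.05 in each DOX-negative (grey) and DOX-positive (red) library, with the mean and SD of each group of 3 in black and axes from 0. The groups do not overlap for any of them, and the distance is widest against the spread for KIF21A.

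Cargo adaptors and regulators of the transport kinesins gave 3 calls among 13 tested (23.1%, beside 26.7% of all genes), 2 higher and 1 lower. TRAK1, which links kinesin-1 to mitochondria, was at 79.8, 81.1 and 77.6 CPM without DOX and at 99.7, 89.0 and 91.7 CPM with it, and rose by 0.24 (SE 0.07, adjusted p = 0.0164, edgeR). PLEKHM2, an adaptor that couples lysosomes to kinesin-1, was at 37.9, 45.7 and 39.7 CPM against 56.4, 45.8 and 50.6 CPM, barely apart, and rose by 0.31 (SE 0.09, adjusted p = 0.0149). Each of these calls was lost in 3 of the 6 fits with a library left out. With DOX-negative replicate 1 left out the adjusted p was 0.0584 for TRAK1 and 0.0941 for PLEKHM2, with DOX-negative replicate 3 left out it was 0.0557 and 0.0550, and with DOX-positive replicate 1 left out it was 0.108 and 0.109. MAPK8IP1, a scaffold that binds the kinesin light chains, was at 8.70, 9.77 and 10.0 CPM against 6.67, 6.84 and 6.66 CPM and fell by 0.50 (SE 0.14, adjusted p = 0.0116), a call that held with each library left out. The light chains KLC1, KLC2, KLC3 and KLC4 had log2 fold changes of 0.09, 0.13, 0.10 and -0.23 and did not pass the test.

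Of 7 cilium and other kinesins tested, 1 fell (14.3%, beside 13.7% of all genes that fell), with a class median of 0.13 that rests mostly on genes of low count. KIF24 (chr9:34252380-34333671) was at 25.7, 24.8 and 24.6 CPM without DOX and at 20.2, 20.1 and 18.8 CPM with it, tight within each group and without overlap. It fell by 0.34 (SE 0.10, adjusted p = 0.0108, edgeR), to 78.8% of its DOX-negative mean, and stayed under 0.05 with each library left out, at most 0.0498. KIF24 overlaps UBAP1 on the opposite strand. KIF26A was at 5.06, 4.96 and 5.32 CPM and at 4.53, 4.65 and 2.76 CPM, without overlap and with DOX-positive replicate 3 the lowest (log2 fold change -0.34, SE 0.20, adjusted p = 0.227). KIF17 was at 2.37, 2.35 and 1.84 CPM and at 2.35, 2.61 and 1.14 CPM, with overlap (-0.07, SE 0.29). KIF7, the hedgehog regulator at the cilium tip, and KIF9, a motor of motile cilia, had the largest positive values of the class, 0.55 (SE 0.30) and 0.39 (SE 0.28), on at most 57 counts in a library. On the opposite strand KIF7 overlaps TICRR, and KIF9 overlaps KLHL18 and KIF9-AS1.

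The 6 kinesins with a call are set out here by the 100 bases before and 20 bases after a RefSeq start, so that their promoters can be read beside their values, with CHR words and CCAAT boxes on either strand in capitals.

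KIF21A, higher with DOX (chr12:39443101-39443220, minus strand): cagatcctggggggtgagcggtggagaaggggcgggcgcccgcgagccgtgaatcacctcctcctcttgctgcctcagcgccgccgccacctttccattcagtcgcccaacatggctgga
KIF3B, higher with DOX (chr20:32277551-32277670, plus strand): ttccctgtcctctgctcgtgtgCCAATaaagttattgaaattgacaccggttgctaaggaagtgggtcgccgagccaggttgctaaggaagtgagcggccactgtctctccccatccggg
KIF14, lower with DOX (chr1:200620732-200620851, minus strand): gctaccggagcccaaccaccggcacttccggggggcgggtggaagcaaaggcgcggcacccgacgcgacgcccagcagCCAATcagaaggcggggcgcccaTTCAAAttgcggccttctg
KIF1C, lower with DOX (chr17:4997850-4997969, plus strand): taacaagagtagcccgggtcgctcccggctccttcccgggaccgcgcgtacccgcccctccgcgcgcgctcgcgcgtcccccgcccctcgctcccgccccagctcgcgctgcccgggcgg
KIF5C, lower with DOX (chr2:148875127-148875246, plus strand): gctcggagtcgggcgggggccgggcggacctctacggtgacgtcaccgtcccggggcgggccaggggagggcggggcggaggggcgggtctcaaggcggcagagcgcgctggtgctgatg
KIF24, lower with DOX (chr9:34329249-34329368, minus strand): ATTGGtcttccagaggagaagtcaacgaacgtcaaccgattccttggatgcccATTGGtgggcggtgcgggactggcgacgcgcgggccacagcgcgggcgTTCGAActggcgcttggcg

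KIF14 and KIF24 both hold a CHR word at the first base after the start, and both fell. A CCAAT box lies before the word in KIF14, and CCAAT boxes lie before it in KIF24. The start used for KIF24 lies inside its gene. The promoters of KIF21A, KIF1C and KIF5C hold neither word in the stretch shown, and that of KIF3B holds a CCAAT box. The other 10 mitotic kinesins with a CHR word in the promoter did not pass the test, or, for KIF4B, were not tested. KIF18B holds a CHR word at 2 with CCAAT boxes at -55 and -32, and its log2 fold change was -0.00149. Of the rest, KIF18A, KIF4A and KIF11 had positive values (0.13, 0.10 and 0.09). Those of KIF15, KIF20B, KIF22, KIF23 and KIFC1 were negative.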

How the data were processed

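The authors deposited whole-number read counts and TPM per gene for 3 DOX-negative and 3 DOX-positive libraries (TruSeq Stranded mRNA); their processing notes name STAR, DESeq2 and GRCh38. Members and lists were chosen with earlier results of these data known. Counts were tested with edgeR 4.0.16 in R 4.3.3 (TMM, filterByExpr, glmQLFit and glmQLFTest, two-sided, group only), adjusted by Benjamini-Hochberg over 14292 genes; SE is the absolute log2 fold change over the square root of F. CPM use TMM-scaled totals. In the TPM deposited by the authors, 5 short noncoding RNAs took 34.4% to 64.4% of a library, so TPM was used as shares of kinesin TPM. Within groups, counts varied beyond sampling noise (chi-square per degree of freedom from 3.76 to 20.2). Same-numbered libraries did not deviate together (correlations from -0.095 to -0.0189). Named genes were MUC1, kinesins and partners with an adjusted p under 0.05, the 3 highest kinesins per class by mean TPM, KIF11 and KIFC1. KIF1B, KIF15, KIF21B, relatives and class extremes were named after their values were seen. Floors cover counting error only. Gene overlaps are from GENCODE 29. Some genes are not reported here.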

Additional observations from a re-analysis of the deposited data

How the results depend on the processing

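Among count-based fits (DESeq2 1.42.0, RLE factors, thinned counts, library totals as scale, a minimum of 10 counts everywhere or no filter, and the replicate block) the number of kinesins called stayed between 5 and 7. Library totals added KIF20A, giving 2 mitotic kinesins, and no filter added KIF21B. With the replicate number as a block 3158 genes, 5 kinesins, 1 mitotic and 3 transport kinesins were called, since KIF1C was lost; the medians were -0.111 (mitotic) and 0.0814 (transport).

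With limma 3.58.1 on log2(TPM + 1) and log2(TPM + 0.1), 322 and 355 genes and 0 kinesins, mitotic or transport, were called; the mitotic medians were -0.459 and -0.503 and the transport medians -0.265 and -0.304, with medians over all genes of -0.335 and -0.387. DOX-negative replicate 2 held the lowest share of short noncoding RNAs. After TPM were rescaled without those 5 RNAs, 2863 genes, 2 kinesins (KIF21A and KIF24), 0 mitotic and 1 transport kinesin were called.

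With each library left out in turn, calls ranged from 2784 to 3645 genes, from 4 to 6 kinesins, from 0 to 2 mitotic kinesins (0 without DOX-positive replicate 1, 2 without DOX-negative replicate 2) and from 2 to 4 transport kinesins (2 without DOX-positive replicate 3). The mitotic median ranged from -0.135 to -0.0254, the transport median from 0.00246 to 0.134, and the difference in mitotic share of kinesin TPM from -2.67 to -1.09 percentage points. That difference was -1.95 with counts per kilobase, -2.04 with summed counts, -1.38 without KIF5B and -1.61 with KIF2A outside the mitotic class.

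Under log2(TPM + 1) and log2(TPM + 0.1) these log2 fold changes turned negative: KIF2C (-0.35 and -0.36), KIF4A (-0.28 and -0.29), KIF11 (-0.30 and -0.30), KIF18A (-0.25 and -0.26), KIF1B (-0.20 and -0.21), KIF3A (-0.26 and -0.30), KIF3B (-0.16 and -0.17), KIF3C (-0.24 and -0.26), KIF5B (-0.28 and -0.28), KIF13B (-0.27 and -0.32), KIF21A (-0.026 and -0.026), KIFC2 (-0.12 and -0.13), KIFC3 (-0.30 and -0.31), KIF9 (-0.012 and -0.031), KIF26B (-0.096 and -0.22), TRAK1 (-0.15 and -0.16), PLEKHM2 (-0.081 and -0.083), HMMR (-0.19 and -0.19), DYNC1H1 (-0.0599 and -0.0598), DCTN5 (-0.10 and -0.11), NDEL1 (-0.0501 and -0.0507). After TPM were rescaled without the short noncoding RNAs, all the log2 fold changes listed here were positive. They ran from 0.00811 (KIF2C) to 0.335 (KIF21A), with KIF3B at 0.198 and KIF5B at 0.0882. The median over all genes was -0.0251 in that fit. Values near 0, and that of KIF5A at 3 to 12 counts, also changed sign in other fits. KIF18B was 0.00222 with RLE factors and 0.0031 with DESeq2. With each library left out in turn, KIF18B ranged from -0.0815 to 0.0961, KIF5A from -0.0362 to 0.833, KIF23 from -0.0853 to 0.0138, KIF13B from -0.0199 to 0.158, KIFC3 from -0.0581 to 0.164, KIF2C from -0.0204 to 0.123 and KIF17 from -0.264 to 0.182. The cause was not tested. Depth limits the 6 kinesins that were not tested and those under 100 counts, whose standard errors reached 0.59 (KIF5A).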

Other observations

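Cytoplasmic dynein walks opposite to most kinesins, and with dynactin and its regulators it returns cargo to the cell centre and pulls on the spindle. Of 19 genes of this machinery tested, 4 rose and 2 fell (31.6%, beside 26.7% of all genes; edgeR), with a median log2 fold change of 0.13. DYNC1H1, the motor heavy chain, rose by 0.33 (SE 0.08, adjusted p = 0.00479), from 1697 ± 239 to 2128 ± 141 CPM (SD, n = 3). The light chain DYNLT3, the dynactin subunit DCTN5 and the regulator NDEL1 rose by 0.44, 0.29 and 0.34 (SE 0.08, 0.07 and 0.08; adjusted p = 0.000435, 0.0035 and 0.00188). DYNC1LI2, a light intermediate chain that binds cargo adaptors, fell by 0.28 (SE 0.06, adjusted p = 0.00132). PAFAH1B1 (LIS1), which activates dynein together with NDEL1, fell by 0.41 (SE 0.06, adjusted p = 4.57e-05), from 211 ± 2.82 to 159 ± 7.70 CPM, so that NDEL1 and PAFAH1B1 moved apart. Each of these 6 calls held with every library left out. None passed with limma on log2(TPM + 1). After TPM were rescaled without the short noncoding RNAs, the adjusted p of DYNC1H1 was 0.0703 by limma, and the others passed.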
